A study of Mus musculus with 28 samples.

Results

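The E17.5 comparison of the axonal and the retinal translatome set ribosome-bound mRNAs from the far ends of retinal ganglion cell axons against those from the eye of the same embryonic stage. Of the 28 libraries of the series, 4 carried this comparison, namely 2 from the superior colliculus of Cre-positive embryos (called axon 1 and axon 2) and 2 from the eye (retina 1 and retina 2). The 2 libraries from the superior colliculus of Cre-negative embryos served only as a measure of background. All embryos were on a C57BL/6 background at E17.5 and came from a RiboTag by Pax6-alpha-Cre cross in which the mother was homozygous for RiboTag, so the Cre-negative controls carried the floxed allele too. In RiboTag mice, Cre recombination replaces the last exon of Rpl22, a protein of the large ribosomal subunit, with a copy that ends in an HA tag, and antibodies to HA then pull down ribosomes with the mRNAs on them. Pax6-alpha-Cre acts in progenitors of the peripheral retina only. The tag therefore marks ganglion cells of that region together with the other neurons and progenitors that descend from the same cells, and the retina libraries are not ganglion cell libraries. The labels call the eye samples retina, whereas the methods describe homogenates of eyes, and several eyes or colliculi were pooled for each library. No Cre-negative eye library was analysed here, so background in the retina libraries was not measured.

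Retinal ganglion cells are the only retinal neurons that send axons to the brain, and in rodents most of these axons end in the superior colliculus. Growing axons carry ribosomes and a subset of the cell's mRNAs, and local protein synthesis is known to serve guidance, branching and maintenance of the axon. At E17.5 the axons have arrived in the colliculus and are still elongating, while the peripheral retina still holds dividing progenitors, newborn neurons and the first photoreceptors. The cell bodies of these axons lie in the eye, so tagged ribosomes in the colliculus are those of axons, and RNA of collicular cells can be carried over on the beads and antibody.

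The files give FPKM, a count of sequenced fragments divided by transcript length and by the size of the library, for 23995 gene symbols. A gene was tested when it reached 1 FPKM in at least 2 of the 4 libraries, which 2978 genes did. Each gene was then given a percentile rank within each library among those 2978, from the lowest FPKM towards 0 to the highest at 100. Genes with the same FPKM shared their mean rank, so a 0 ranked higher in a library with more zeros. A 0 stood at percentile 13.7 in axon 1, whereas 1.04 FPKM (Dnajc14) stood at 8.38 in retina 2. A gene at 0 in axon could thus rank above a low value in retina. A gene was said to rank higher in axon when both axon libraries ranked above both retina libraries, and higher in retina in the opposite case. The number of sequenced fragments was not stated. The spacing of the lowest FPKM values placed it near 7170000 for axon 1, 12060000 for axon 2, 8950000 for retina 1 and 8420000 for retina 2, at which 3 fragments of a 2-kb transcript equal 0.124 to 0.209 FPKM. Cre-negative 1 was far shallower, near 480000 fragments, where the same 3 fragments equal 3.15 FPKM.

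The axon libraries resembled each other less than they resembled the background controls. Over the 2978 genes, Spearman's rho between axon 1 and axon 2 was 0.156, whereas axon 1 reached 0.516 with Cre-negative 1 and axon 2 reached 0.687 with Cre-negative 2. The retina libraries stood at 0.641 with each other. Axon 1 had 813 of the tested genes listed at 0 and axon 2 had 365, against 299 in retina 1 and 23 in retina 2. These correlations run across genes within libraries, share the filter, and are given as descriptions. An entry of 0 cannot be read as absence in these files: Tubb5, a beta-tubulin of every dividing cell and young neuron, was listed at 0 in retina 1 but at 13862 FPKM in retina 2, 7306 in axon 1 and 8163 in axon 2. Values are therefore given for each library rather than as means.

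**Figure D1:**
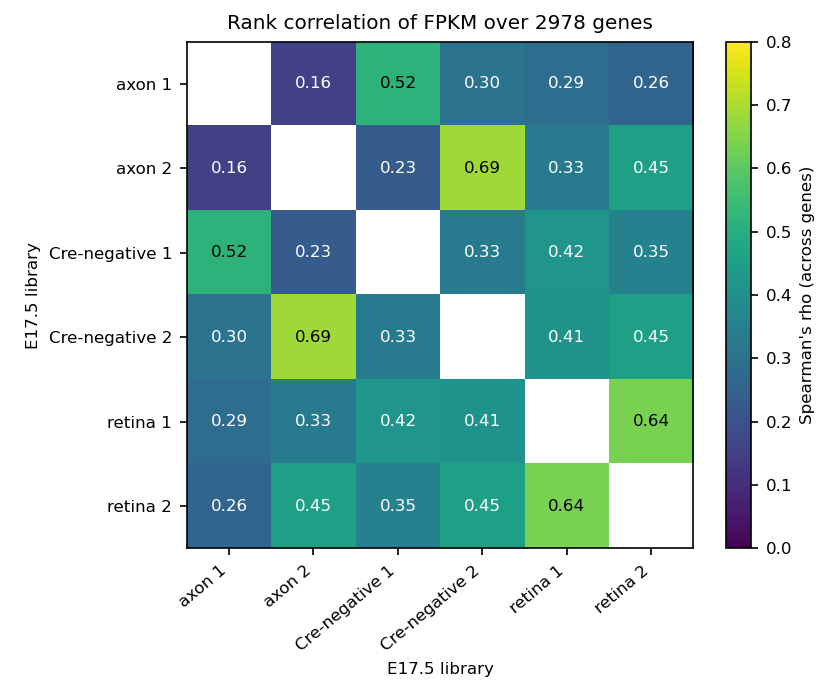
Spearman's rho of FPKM between each pair of E17.5 libraries over the 2978 genes tested, with rows and columns giving the 6 libraries and colour giving rho. The retina pair (0.64) and each axon library with the Cre-negative library of the same number (0.52 and 0.69) are higher than the axon pair (0.16).

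With 2 libraries on each side and this spread, no single gene passed a test of the difference. In limma on log2(FPKM + 1), 0 genes were higher in axon and 0 were higher in retina at an adjusted p under 0.05, and the smallest adjusted p was 0.744. At an unadjusted p under 0.05 there were 14 genes higher in axon (0.47% of those tested) and 41 higher in retina (1.38%). Counts by other settings ranged up to 33 and 62, reached when all 24 libraries with FPKM shared one estimate of the spread. An exact permutation test of 2 against 2 cannot give a two-sided p below 0.333. All that follows on E17.5 is thus a description of ranks and levels, and the limma values that accompany named genes all have an adjusted p of at least 0.744. Nothing in the labels ties replicate numbers to separate litters, so p-values measure only the spread between these pooled samples.

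By rank, 488 genes stood higher in axon, which is 16.4% of those tested, and 603 stood higher in retina, which is 20.2%. The remaining 1887 overlapped. The study took axons and retina from the same animals without saying that replicate numbers mark them; with libraries paired by number, so that axon had to exceed retina within each pair only, the counts were 750 and 821, and limma with the number as a block gave 0 and 1 genes. The genes that ranked higher in axon had a median FPKM of 15.1 in axon 1 and 5.96 in axon 2, against 0.194 in retina 1 and 1.57 in retina 2. Those that ranked higher in retina had medians of 5.21 and 14.8 in the retina libraries and 0.0444 and 0.384 in the axon libraries. At 1 FPKM in all 4 libraries stood 90 of the 488 and 148 of the 603. The filter itself brought in 131 of the 488 through the axon libraries alone and 320 of the 603 through the retina libraries alone. In all, 133 and 364 genes had passed in these ways, so that for them the filter largely fixed the order. At 0 in both axon libraries were 104 of the 603, against 4 of the 488 at 0 in both retina libraries.

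Transcripts that ranked higher in axon were longer. Their median length in the GENCODE annotation was 2527 nt (486 genes with a length), against 1538 nt for the retina set (599 genes) and 1865 nt for all tested genes. The GC content of the same transcripts differed little, at medians of 51.7%, 51.4% and 51.2%. Each library was made by reverse transcription from the poly(A) tail and PCR, with more PCR for the colliculus, and the part of length in these ranks was not tested.

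The Cre-negative libraries often shared the order of the axon genes. In 279 of the 488 axon-ranked genes (57.2%) both Cre-negative libraries also ranked above both retina libraries, whereas this held for 534 of all 2978 genes (17.9%). As the axon genes were chosen for low ranks in the same retina libraries, the choice itself raises the first share, and nothing is read from the gap. The stricter set, in which the lower axon library also ranked above both Cre-negative libraries, held 137 genes, 4.6% of those tested. At the depth of Cre-negative 1, a gene listed at 0 there may still have been present below about 3 FPKM.

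Genes of dividing retinal progenitors stood largely on the retina side. Of 34 genes in a list of cell cycle and retinal progenitor genes, 18 were tested, 15 of them ranked higher in retina (83.3%, against 20.2% of all tested genes) and 0 ranked higher in axon. As 13 of the 18 passed the filter through the retina libraries alone, the share cannot be set against that of all genes as a result. Top2a, the topoisomerase that untangles replicated chromosomes, stood at 6.83 and 18.8 FPKM in retina 1 and 2, at 0 and 0.198 in axon 1 and 2, and at 0 and 0.177 in the Cre-negative pair. Tk1, a thymidine kinase of S phase, stood at 5.93 and 10.3 FPKM in the retina libraries and was listed at 0 in both axon libraries and in both Cre-negative ones. Neither gene's axon and retina values came near each other.

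The progenitor transcription factors followed the same order. Pax6, whose alpha enhancer drives the Cre used here and which specifies eye identity, stood at 3.85 and 13.5 FPKM in retina and at 0 and 0.129 in axon. It was listed at 0 in both Cre-negative libraries. Six3, Six6 and Lhx2, further eye-field regulators, likewise ranked higher in retina. Fgf15, a growth factor of retinal progenitors, stood at 1.72 and 45.2 FPKM in retina and at 0 and 0.238 in axon, with wide disagreement between the retina libraries. Sfrp2, a secreted Wnt modulator, was abundant on both sides, at 2575 and 257 FPKM in retina against 120 and 39.9 in axon and 190 and 64.3 in Cre-negative colliculus, and its log2 difference of -3.54 (SE 1.62) was among the few with an unadjusted p under 0.05 (limma, adjusted p at least 0.744). The 3 list members that overlapped were Ccnd1, the D-type cyclin that admits cells to S phase (110 and 8.79 FPKM in axon, 154 and 47.0 in retina), Mcm4 and Notch1. Without any 1 of the 4 libraries, 15 to 17 of the 18 ranked higher in retina and 0 to 2 in axon, the 2 appearing without axon 1.

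Because the division genes of this list stood together, their promoters are shown around 2 short words known from cell cycle genes. E2F factors switch on S-phase genes through words such as TTTGGCGC and TTTCCCGC, and NF-Y binds CCAAT. Both strands of the window from 250 bases before to 50 after the start site were searched in RefSeq promoters on GRCm38.p6. Of the 15 retina-ranked members, 12 had a promoter in the table. An E2F word lay in 2 of the 12 (16.7%), against 1.80% of all 27025 promoters, 3.61% of those of tested genes and 4.30% of those of retina-ranked genes. CCAAT lay in 8 of the 12 (66.7%), against 41.1%, 43.4% and 46.5%. The 12 were not division genes alone, and the eye-field regulators Pax6, Six3 and Six6 were among the 8. With CCAAT so common, such matches describe the letters of the window and no binding. Capitals mark the word as it reads on the strand of the gene.
Mcm5, a subunit of the replicative helicase, chr8:75109349-75109378, plus strand: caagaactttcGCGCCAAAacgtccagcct
Mcm7, another subunit of that helicase, chr5:138172030-138172059, minus strand: aatttcgaaccGCGGGAAAcagggtgtcca
Top2a, chr11:99024249-99024278, minus strand: tgcaaacagagCCAATgagagcgagtcggt
Ccnb2, a mitotic cyclin, chr9:70421623-70421652, minus strand: atacaagccagCCAATcaacgtgcagaaag
Of these genes, Mcm5 stood at 10.2 and 5.89 FPKM in retina against 0.799 and 0.0475 in axon. Mcm7 stood at 1.497 and 6.345 FPKM in retina and was listed at 0 in both axon libraries, with 33.2 in Cre-negative 1. Ccnb2 stood at 5.56 and 13.99 FPKM in retina against 0 and 0.284 in axon. In each of the 3 the retina values were the higher, though for Mcm7 a background library exceeded them.

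Lens genes were present in the retina libraries. Of 30 markers of lens, pigment epithelium and cornea, 14 were tested. Of the 14, 13 ranked higher in retina (92.9%, against 20.2% of all genes tested) and 0 in axon. The filter passed 8 of the 14 through the retina libraries alone. The crystallins, the structural proteins of lens fibres, led the list. Cryaa stood at 112 and 167 FPKM in retina, at 3.83 and 1.64 in axon, and at 10.1 and 0.295 in the Cre-negative libraries. Crybb1 stood at 26.6 and 63.9 FPKM in retina against 0.933 and 0.902 in axon. Pmel, a melanosome protein of pigment cells, stood at 3.03 and 5.47 FPKM in retina against 0 and 0.0792 in axon. The summed FPKM of the whole list was 359 in retina 1 and 593 in retina 2 against 15.6 and 6.07 in axon, with 766 in Cre-negative 1 and 0.836 in Cre-negative 2. Of its 30 genes, 13 were at 0 in retina 1 and 6 in retina 2. How much of any retina value came from lens or pigment cells was not tested.

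Ganglion cell markers did not all fall on one side. Of 17 markers 7 were tested, of which 5 ranked higher in retina (71.4%, against 20.2% of all genes tested), 1 higher in axon and 1 overlapped. Of the 7, 4 passed the filter through the retina libraries alone and 1 through the axon libraries alone. Sncg, gamma-synuclein, a classical ganglion cell marker, stood at 40.7 and 35.0 FPKM in retina, at 0 and 0.142 in axon and at 0 in both Cre-negative libraries, which gave one of the widest gaps of any gene. Isl1, a LIM-homeodomain factor of ganglion and other retinal neurons, stood at 18.2 and 3.89 FPKM in retina against 0.110 and 0.0329 in axon. Nefl, the light neurofilament chain that is transported into axons, stood at 1.20 and 4.53 FPKM in retina and 0.0711 and 0.0424 in axon. The Cre-negative libraries held 12.7 and 0.0379 FPKM of Nefl. Atoh7, which gives progenitors the competence to become ganglion cells, stood at 1.92 and 2.08 FPKM in retina and was listed at 0 in both axon libraries.

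Pou4f2 (Brn3b), a POU-domain factor needed for ganglion cell differentiation and axon growth, took the opposite order. It stood at 18.4 and 5.36 FPKM in axon 1 and 2, at 0.205 and 0.253 in retina 1 and 2, and at 0.639 and 0 in the Cre-negative libraries. Both axon values lay above every other library, although the log2 difference of 3.18 (SE 1.95, limma) did not pass. At P0.5 it stood at 10.05 and 1.56 FPKM in axon against 0.0923 and 0.0904 in retina, in the same order. Its relative Pou4f1 (Brn3a), also used by midbrain neurons, was very abundant and overlapping, at 80.3 and 3501 FPKM in axon, 2036 and 7381 in retina and 66.5 and 2060 in Cre-negative colliculus.

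Few markers of other retinal neurons passed the filter. Of 21 photoreceptor markers 4 were tested and 2 ranked higher in retina (50%, against 20.2% of all genes tested), with 2 of the 4 passed through retina alone. Thrb, the thyroid hormone receptor of cone precursors, stood at 145 and 945 FPKM in retina against 0.378 and 13.7 in axon and 1.67 and 38.7 in the Cre-negative libraries, with a log2 difference of -6.37 (SE 2.01; limma, adjusted p at least 0.744). Gngt2, a cone transducin subunit, stood at 2.39 and 6.58 FPKM in retina and was listed at 0 in the other 4 libraries. Otx2 and Opn1sw overlapped in rank. Otx2 stood at 2.04 and 13.1 FPKM in axon, 0.474 and 11.4 in retina, and 0 in both Cre-negative libraries. Opn1sw stood at 0.580 and 0.0692 FPKM in axon against 6.23 and 2.27 in retina. Of 15 amacrine and horizontal cell markers 2 were tested. Tfap2a, a factor of amacrine cells, stood at 2.78 and 5.40 FPKM in retina against 0 and 0.115 in axon, and Tfap2b overlapped. The eye samples thus carried markers of several retinal classes and of lens, and in bulk samples fewer cells of a type and less RNA per cell cannot be told apart.

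**Figure D2:**
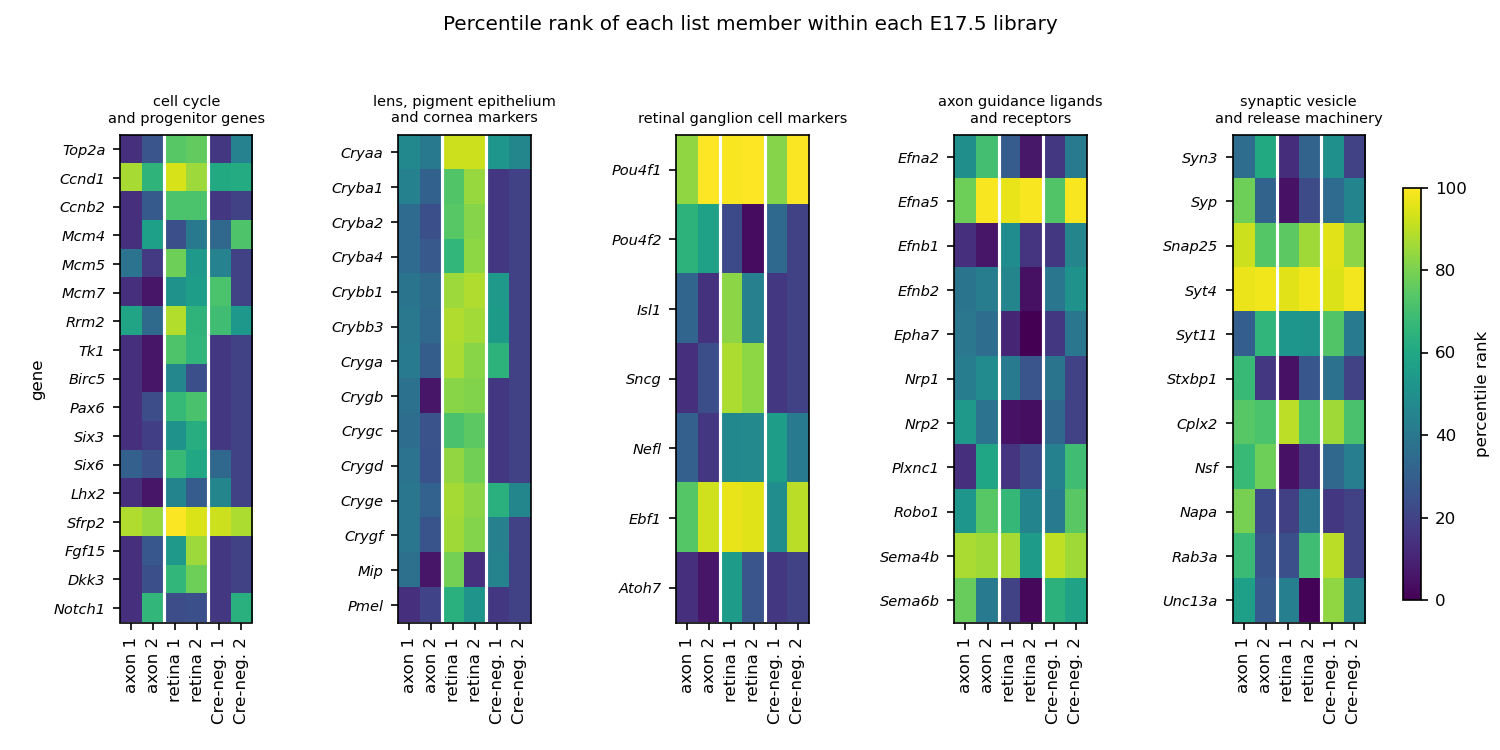
Percentile rank (colour, 0 to 100) of the tested members of 5 gene lists, 1 progenitor gene left out, within each E17.5 library, with columns for axon 1 and 2, retina 1 and 2 and Cre-negative 1 and 2. Most progenitor and lens genes rank higher in both retina columns than in both axon columns, though some, such as Sfrp2, rank high in all 6 columns. Pou4f2, Nrp2, Epha7 and Nsf rank higher in both axon columns than in both retina columns.

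The 10 genes with the widest gap towards the axon, among those at 10 FPKM or more in both axon libraries, were Aftph, Zfand2b, Cnot7, 2900092D14Rik, Lmo3, Inpp5e, Meg3, Nfatc2, Deaf1 and Lef1. They include genes of membrane trafficking, of mRNA decay and of transcription. Aftph, encoding the clathrin adaptor partner aftiphilin, stood at 75.3 and 19.3 FPKM in axon and 0.0283 and 0.397 in retina, but at 239 and 14.6 in Cre-negative colliculus. Cnot7, a deadenylase of the CCR4-NOT complex that shortens poly(A) tails, stood at 23.2 and 16.2 FPKM in axon, 0 and 0.650 in retina, and 0 and 31.5 in the Cre-negative libraries. Lmo3, a LIM-only regulator of transcription, stood at 149 and 49.5 FPKM in axon, 0.324 and 2.23 in retina, and 23.1 and 107 in the Cre-negative libraries. For each of these a Cre-negative library reached or passed an axon library.

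Meg3 codes for no protein. This imprinted long noncoding RNA, which is abundant in neuronal nuclei, stood at 54.6 and 10.6 FPKM in axon, 0.0459 and 0.403 in retina, and 64.3 and 27.8 in Cre-negative colliculus. Nfatc2, a calcium-responsive transcription factor, stood at 47.8 and 10.3 FPKM in axon, 0.0505 and 0.161 in retina, and 127 and 15.8 in the Cre-negative pair. In both, the background libraries exceeded the axon libraries of the same number.

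Zfand2b and Lef1 were the only members of that group of 10 that also ranked above both Cre-negative libraries. Zfand2b, a zinc finger protein tied to the proteasome at the endoplasmic reticulum, stood at 55.7 and 10.6 FPKM in axon, at 0 and 0.108 in retina and at 0 in both Cre-negative libraries, a log2 difference of 4.61 (SE 2.19; limma, adjusted p at least 0.744). It lies at chr1:75168646-75171629 on the plus strand of GRCm38. At P0.5 Zfand2b was listed at 0 in both axon libraries and at 0.273 and 0.0879 FPKM in retina, so its order was not repeated in FPKM. Lef1, the HMG-box factor through which Wnt signals reach their target genes, stood at 41.2 and 57.7 FPKM in axon, 0.195 and 1.03 in retina, and 30.9 and 10.7 in the Cre-negative pair. Both background values lay below both axon values, and the log2 difference between axon and retina was 4.996 (SE 2.23). At P0.5 Lef1 stood at 2.47 and 4.66 FPKM in axon against 0 and 0.0428 in retina.

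Among genes that ranked above both Cre-negative libraries, the same rule further named Nsf, Tmem126a, Zfpl1, 2810001G20Rik, Sccpdh, Thra, Trap1 and Mrpl55. Nsf, the ATPase that takes spent SNARE complexes apart so that vesicles can fuse again, stood at 23.2 and 21.3 FPKM in axon, 0 and 1.41 in retina, and 0.541 and 0.0766 in the Cre-negative libraries. In FPKM, though not in percentile rank, its axon libraries were the most alike of the group. Mrpl55 and Tmem126a, for a mitochondrial ribosome subunit and a mitochondrial inner membrane protein, stood at 32.6 and 43.6 FPKM and at 73.1 and 31.1 FPKM in axon, against at most 1.29 and 2.84 in retina. Their Cre-negative values were at most 1.77 and 4.71 FPKM. At P0.5 Tmem126a stood at 71.4 and 70.1 FPKM in axon, whereas Mrpl55 and Sccpdh were listed at 0 in both axon libraries. Trap1, the mitochondrial HSP90, stood at 115 and 37.6 FPKM in axon and at 1.27 and 5.29 in retina, but at 0 and 39.3 in the Cre-negative pair. Thra, the thyroid hormone receptor alpha, stood at 85.3 and 10.4 FPKM in axon against 0.502 and 1.06 in retina, the reverse of the order of Thrb. Its Cre-negative values were 19.7 and 0 FPKM, so that it lay above background in rank but not in FPKM.

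**Figure D3:**
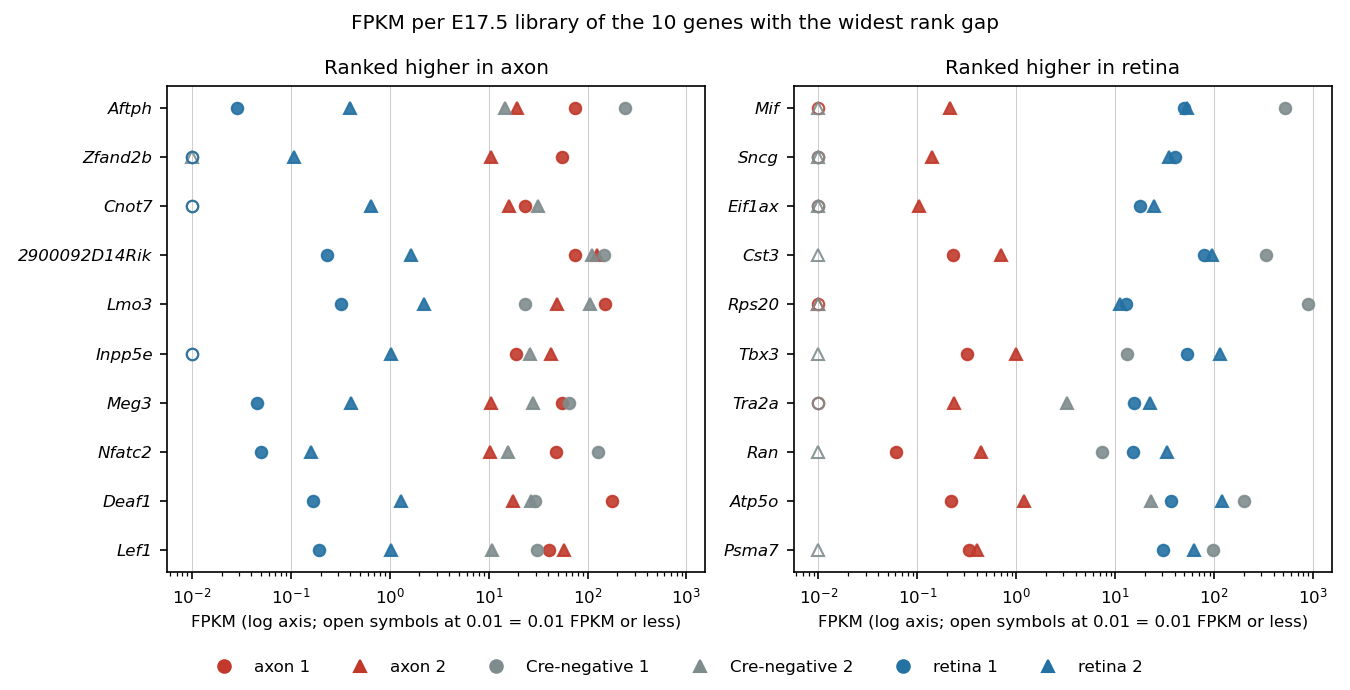
FPKM (log axis) in each E17.5 library of the 10 genes with the widest rank gap towards axon (left) and towards retina (right), with red for axon, blue for retina, grey for Cre-negative colliculus, circles for replicate 1 and triangles for replicate 2. On the left the grey symbols lie among the red ones for most genes, and Zfand2b is the gene with both grey symbols at 0.

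Few axon guidance molecules could be compared. Of 70 ligands and receptors 11 were tested, 5 ranked higher in axon (45.5%, against 16.4% of all genes tested) and 1 higher in retina, but 4 of the 5 had passed through the axon libraries alone and only Nrp1 of the 5 reached 1 FPKM in a retina library, so the share is no result about the list. Nrp2, a semaphorin co-receptor, stood at 8.20 and 1.38 FPKM in axon, 0 and 0.267 in retina, and 0.429 and 0 in the Cre-negative libraries. Epha7, a receptor for the ephrin-A ligands that map retinal axons on the colliculus, stood at 1.22 and 1.05 FPKM in axon against 0.0158 and 0 in retina and 0 and 0.0104 in the background. Efna2, one of those ligands, stood at 5.51 and 11.7 FPKM in axon against 0.381 and 0.789 in retina, with 0 and 0.0354 in the Cre-negative pair. These 3 transcripts were low, and in FPKM both axon libraries exceeded the other 4 libraries. In Cre-negative 1, 3 fragments of a 2-kb transcript equal 3.15 FPKM, so a low value there says little about background for such transcripts.

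Sema6b, a transmembrane semaphorin, reached 48.1 and 1.75 FPKM in axon and 0.146 and 0.123 in retina, but 21.3 and 4.77 in the Cre-negative libraries. Nrp1, the partner receptor of Nrp2, was barely separated, at 2.14 and 2.96 FPKM in axon and 0.903 and 2.08 in retina. Efna5, the most abundant member, overlapped at 51.9 and 1713 FPKM in axon and 468 and 2590 in retina. The number that ranked higher in axon was 5 to 8 when each library was left out, 8 without axon 1 and 8 without retina 1.

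Vesicle release genes showed 3 of 11 tested members higher in axon (27.3%, against 16.4% of all genes) and 0 higher in retina. Besides Nsf they were Syp, the vesicle membrane protein synaptophysin (52.2 and 0.569 FPKM in axon, 0 and 1.86 in retina), and Syn3, a synapsin (0.286 and 6.66 in axon, 0.0540 and 2.55 in retina). For these the axon libraries disagreed by more than 10-fold and axon values overlapped retina values in FPKM, so that the separation held in ranks alone. Snap25 and Syt4, the abundant release proteins, overlapped. The axon-ranked count rose from 3 to 7 without axon 2 and to 7 without retina 2.

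Motor proteins ranked higher in axon in 5 of 21 tested (23.8%, near the 16.4% of all genes) and higher in retina in 1. Kif1a, the kinesin that carries synaptic vesicle precursors, stood at 92.2 and 1.73 FPKM in axon, 0.3604 and 1.93 in retina, and 66.8 and 10.3 in Cre-negative colliculus. Dctn3, a dynactin subunit, stood at 468 and 12.8 FPKM in axon against 0.441 and 11.4 in retina, and at 29.9 and 0 in the background. Klc1, a kinesin light chain, ran the other way, at 15.1 and 40.6 FPKM in retina against 0.296 and 0.862 in axon, with 85.1 and 0 in the background. Leaving out axon 2 gave 11 in axon and 2 in retina and leaving out retina 1 gave 11 and 3, but without axon 1 the counts were 6 and 6 and without retina 2 they were 8 and 7, so that the axon side did not lead in every set of libraries.

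The cytoskeleton of the growth cone showed no lean. Of 24 tested genes 3 ranked higher in axon (Dcx, Dbn1 and Dpysl5) and 3 in retina (Pfn1, Tagln3 and Nefl), each 12.5%. Gap43, the membrane protein most used as a growth cone marker, stood at 186 and 4.98 FPKM in axon, 5.64 and 23.99 in retina, and 125 and 0 in the Cre-negative pair. Dcx, the microtubule protein of migrating and growing neurons, stood at 17.3 and 2.27 FPKM in axon and 0.531 and 0.723 in retina, but at 82.2 and 7.75 in Cre-negative colliculus. Across this list axon 1 was the high library, with a median percentile of 88.8 against 53.4 in axon 2, and Cre-negative 1 matched it at 86.8. Without axon 2 the axon count rose to 16 and without axon 1 the retina count rose to 13, so that the axon library chosen decided the direction.

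Ribosomal proteins ranked higher in retina in 16 of 57 tested (28.1%, near the 20.2% of all genes) and higher in axon in 1, Rpl10a, and 7 of the 57 had passed through the retina libraries alone. Rps20, of the small subunit, stood at 12.9 and 11.1 FPKM in retina and was listed at 0 in both axon libraries, with 882 and 0 in the Cre-negative pair. Rpl6, of the large subunit, stood at 2.52 and 11.1 FPKM in retina and at 0 in both axon libraries, with 54.0 and 0 in the Cre-negative pair. Of the 4 abundant members that the rule named, Rps3, Rps14 and Rps15 overlapped, with Rps3 at 388 and 441 FPKM in axon and 339 and 698 in retina, and Rps25 ranked higher in retina, at 225 and 1764 FPKM against 138 and 131. Rpl22, which carries the tag, stood at 12.7 and 0.0391 FPKM in axon, 0.420 and 6.74 in retina, and 7.84 and 0 in the Cre-negative libraries. The axon libraries again differed, the list's median percentile being 80.5 in axon 1 and 34.2 in axon 2, and the count was 2 in axon and 45 in retina without axon 1 but 31 in axon and 20 in retina without axon 2. For this list the axon library used decided the direction.

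Mitochondrial respiration genes had 19 of 55 tested higher in retina (34.5%, against 20.2% of all genes tested). Higher in axon were 2 (3.64%, against 16.4%), and 8 of the 55 had passed through the retina libraries alone. Atp5o, a stalk subunit of ATP synthase, stood at 36.4 and 120 FPKM in retina against 0.219 and 1.19 in axon, but at 203 and 22.8 in the Cre-negative libraries. Ndufb10, of complex I, stood in the opposite order, at 588 and 59.7 FPKM in axon and 0.456 and 6.60 in retina, with 121 and 52.2 in the background. Proteasome subunits counted 8 of 21 higher in retina (38.1%, against the same 20.2%) and 2 in axon, with 7 of the 21 passed through retina alone. Psma7, of the catalytic core, stood at 30.7 and 62.4 FPKM in retina against 0.335 and 0.404 in axon. Psmb5, which holds a peptidase site, stood at 86.1 and 10.6 FPKM in axon against 0.6001 and 9.13 in retina. The Cre-negative libraries held Psma7 at 96.8 and 0 FPKM and Psmb5 at 5.54 and 5.19. For respiration the axon and retina counts were 5 and 38 without axon 1 but 22 and 25 without axon 2, and for the proteasome they were 4 and 13 without axon 1 and 5 and 11 without axon 2.

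Translation factors ranked higher in retina in 9 of 32 (28.1%, near the 20.2% of all genes) and higher in axon in 2, with 5 passed through the retina libraries alone. Eif1ax, which helps the small subunit scan, stood at 17.8 and 24.9 FPKM in retina, at 0 and 0.105 in axon and at 0 in both Cre-negative libraries. Eif4g1, the scaffold of the cap-binding complex, was one of the 2, at 31.3 and 60.9 FPKM in axon, 2.17 and 5.34 in retina, and 29.01 and 37.3 in the Cre-negative pair. RNA-binding and splicing proteins also stood at 9 of 32 in retina (28.1%) and 2 in axon, with 5 of the 32 passed through the retina libraries alone. Of those 9, 5 were core Sm or splicing subunits of the Snrp family, such as Snrpd1. It stood at 5.996 and 51.9 FPKM in retina, at 0 in both axon libraries and at 34.9 and 0 in the Cre-negative pair. Snrpn, an imprinted neuronal relative of the family, was higher in axon at 16.8 and 64.6 FPKM against 0.182 and 2.63. Histones counted 4 of 10 in retina (40%, against 20.2% of all genes) and 0 in axon, with 4 of the 10 passed through retina alone. Chaperones counted 6 of 22 in retina (27.3%, near the 20.2%) and 2 in axon, with 5 passed through retina alone.

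The widest gaps towards retina were those of Mif, Sncg, Eif1ax, Cst3, Rps20, Tbx3, Tra2a, Ran, Atp5o and Psma7. Mif, a small cytokine, stood at 49.6 and 53.1 FPKM in retina and 0 and 0.213 in axon. Tbx3, a T-box factor of the dorsal retina, stood at 53.0 and 114 FPKM in retina and 0.319 and 0.987 in axon, a log2 difference of -5.60 (SE 2.199; limma, adjusted p at least 0.744). Ran, the GTPase of nuclear transport, stood at 15.3 and 33.8 FPKM in retina against 0.0614 and 0.439 in axon. The Cre-negative colliculus was no guide here, as Mif, Cst3 and Rps20 stood at 520, 333 and 882 FPKM in Cre-negative 1 and at 0 in Cre-negative 2. Psma7 likewise stood at 96.8 and 0 there, and Atp5o at 203 and 22.8.

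**Figure D4:**
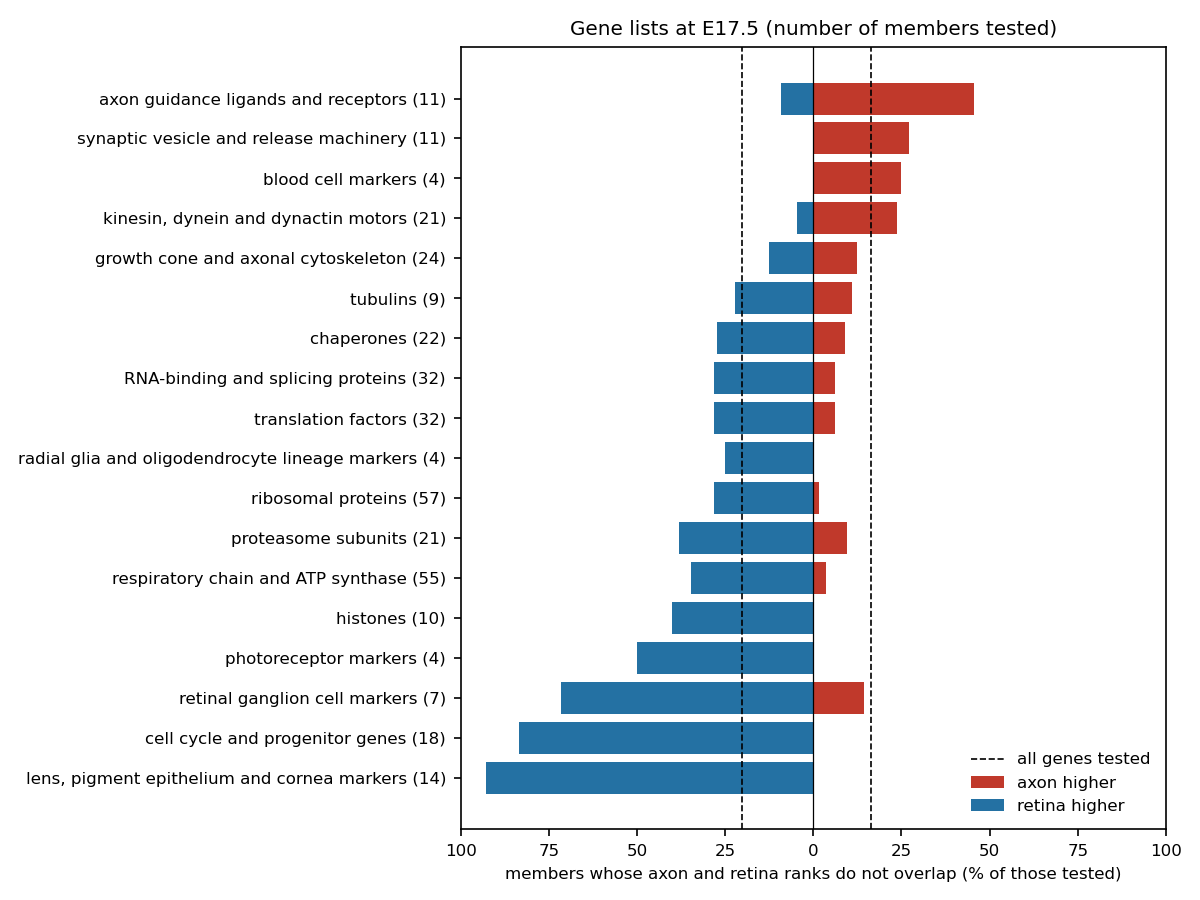
Percentage of the tested members of each gene list that ranked higher in both axon libraries (red, to the right) or in both retina libraries (blue, to the left), for the lists with at least 4 tested members (number in brackets), with dashed lines at the share of all tested genes, 16.4% and 20.2%. Lens and progenitor lists extend furthest to the left (92.9% and 83.3%) and axon guidance furthest to the right (45.5%).

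Markers of collicular and blood cells were checked in the axon libraries. Gata3, a regulator of inhibitory neurons of the midbrain, ranked higher in axon, at 396 and 577 FPKM against 4.82 and 17.4 in retina, and the Cre-negative libraries held 84.9 and 382. Its log2 difference was 5.53 (SE 1.75; limma, adjusted p at least 0.744). Of 12 midbrain neuron markers 3 were tested, 1 ranked higher in axon (33.3%, against 16.4% of all genes tested) and 0 in retina (against 20.2%). The list summed to 575 and 4343 FPKM in axon, 2219 and 8186 in retina and 182 and 2645 in the Cre-negative pair. Pou4f1, also on the ganglion cell list, made up most of the sum in axon 2 (3501), in retina (2036 and 7381) and in Cre-negative 2 (2060). The defining midbrain genes En1, En2 and Pax7 did not pass the filter. Of 4 tested blood markers 1, Hbb-bt, ranked higher in axon (25%, against the same 16.4%) and 0 in retina. It stood at 10.6 and 0.176 FPKM in axon, 0 and 1.24 in retina, and 784 and 0.318 in the Cre-negative pair. Its axon and retina values thus overlapped in FPKM. Hbb-bs, an adult globin, stood at 734 FPKM in axon 1 and 1630 in Cre-negative 1 but at most 3.14 in the other E17.5 libraries. The globin genes are close copies, so reads may have been divided between them. Of 14 glial lineage markers 4 were tested, with 1 higher in retina (25%, near the 20.2% of all genes) and 0 in axon. Of 17 vascular and meningeal markers 1 was tested and overlapped, and 0 of 10 microglia markers passed the filter. The vascular and meningeal list summed to 210 and 3.97 FPKM in axon, 4.29 and 23.1 in retina and 4.44 and 20.6 in the Cre-negative pair. The part of carry-over from collicular cells in any axon value was not tested beyond the Cre-negative values given.

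The later stages offered libraries that the E17.5 ranking did not use. Over the same 2978 genes, 339 of the 488 axon genes (69.5%) ranked higher in both axon libraries at P0.5 too, where 42.3% of all 2978 genes did. At P7.5 the share was 43.9% against 22.4%, and in the adult 25.2% against 15.8%. Of the 137 axon genes above both Cre-negative libraries, 69.3% were higher in axon at P0.5 and 39.4% at P7.5, but 14.6% in the adult, near the share of all genes there. Of the 603 retina genes, 59.5% were higher in retina at P0.5 (38.3% of all genes), 31.7% at P7.5 (16% of all genes) and 21.7% in the adult (13.2% of all genes). The opposite order also occurred: 158 of the 603 retina genes ranked higher in axon at P0.5. For the 279 genes with both Cre-negative libraries above retina the shares were 76.3%, 50.2% and 28.3%, and the difference between these sets was not tested. At P0.5 the axon libraries listed 909 and 791 tested genes at 0, the retina libraries 180 and 127. As genes at 0 shared a mean rank, the axon shares include genes at 0 in both P0.5 axon libraries, such as Adar and Actr6. The part of such zeros in these shares was not tested.

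**Figure D5:**
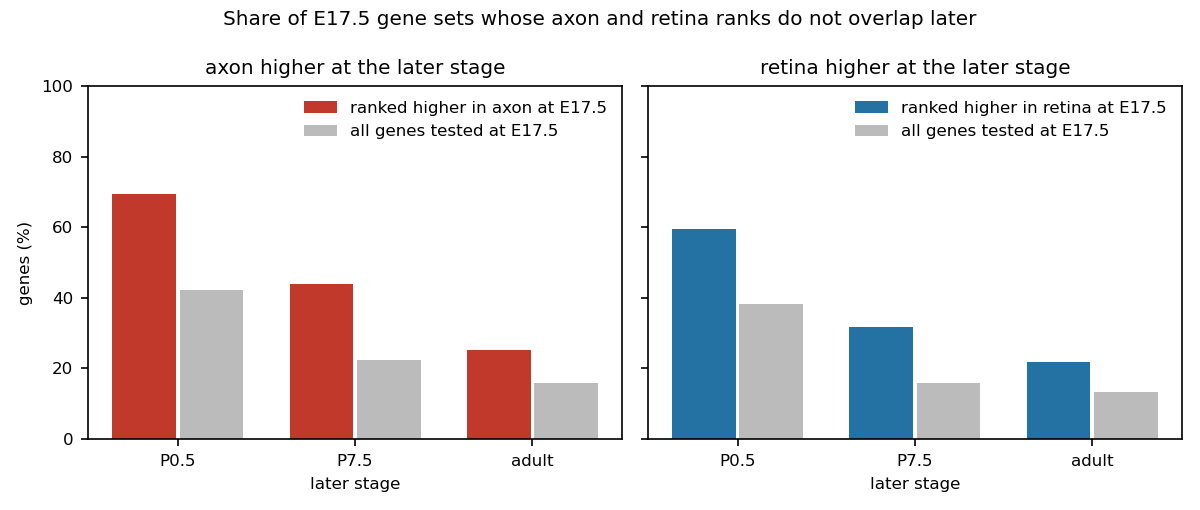
Percentage of genes that ranked higher in both axon libraries (left) or both retina libraries (right) at P0.5, P7.5 and in the adult, for genes with the same order at E17.5 (coloured) and for all 2978 genes tested at E17.5 (grey). The coloured bars exceed the grey ones at each stage, by 69.5% against 42.3% for axon and 59.5% against 38.3% for retina at P0.5.

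The list counts at P0.5 are read beside the 42.3% of all genes higher in axon and 38.3% higher in retina. At P0.5, 17 of the 18 progenitor genes, 14 of the 14 lens genes and 4 of the 4 photoreceptor genes ranked higher in retina. Ribosomal proteins stood the other way, with 35 of 57 higher in axon at P0.5 and 9 higher in retina, as did respiratory chain genes (34 and 13 of 55) and the proteasome (17 and 3 of 21). Single genes show it: Psma7 stood at 100 and 54.1 FPKM in axon and 10.6 and 7.61 in retina at P0.5, and Psmb6, listed at 0 in both E17.5 axon libraries, stood at 366 and 293. Axon guidance genes counted 7 of 11 in axon at P0.5, and motors 11 of 21, near the share of all genes. Growth cone genes, evenly divided at E17.5, counted 19 of 24 in axon and 3 in retina, with Tubb3, the neuronal beta-tubulin, at 3059 and 1804 FPKM against 26.5 and 13.9. At P7.5, 17 of 57 ribosomal proteins ranked higher in retina and 4 in axon, where 16% and 22.4% of all genes did.

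The rank order at E17.5 held at all 4 stages for 69 genes on the axon side and 64 on the retina side, 2.32% and 2.15% of the tested genes. This order holds in ranks and not always in FPKM, because genes at 0 shared a mean rank. Adar, on the axon side, was listed at 0 in both axon libraries at P0.5 and at P7.5. In the adult, Lmo3 stood at 108 and 0 FPKM in axon against 0 and 0.721 in retina. The axon genes included Gata3, Lmo3, Lef1, Kif1a, Dcx, Sema6b and Bcl11b, and 48 of the 69 had both Cre-negative libraries above retina at E17.5 while 11 were above both. Bcl11b, a zinc finger factor of subcortical projection neurons, was one of the 11, at 133 and 68.4 FPKM in E17.5 axon against 1.1003 and 6.84 in retina and 53.1 and 64.1 in the background. Among the retina genes were Six6, Sox9, Tbx3, Rorb and the crystallins Cryaa, Cryba2 and Cryba4. Sox9, a factor of progenitors and later of Müller glia, stood at 557 and 705 FPKM in retina at E17.5 against 145 and 99.6 in axon, and at 269 and 246 against 95.2 and 22.7 in the adult. Rorb, a nuclear receptor of retinal neurons, stood at 723 and 3142 FPKM in retina against 8.15 and 309 in axon at E17.5.

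The difference between stages was tested in its own right against P0.5, the nearest stage. Over 5084 genes, the axon-minus-retina difference was smaller at E17.5 for 1563 genes (30.7%) and larger for 59 (1.16%) in limma at an adjusted p under 0.05, with a median of -1.88 on the log2 scale over all genes. Of the 603 retina genes 187 were among the smaller and 1 among the larger, much as for all genes, and of the 488 axon genes 16 were among the smaller and 43 among the larger. These sets were chosen on the same E17.5 values, so their counts are no result. The fit shared 1 estimate of each gene's spread between both stages, and whether the stages spread alike was not tested. In the fit of E17.5 alone the SE for Cst3 was 2.19. This gene, for the secreted protease inhibitor cystatin C, had the smallest p. It stood at 0.230 and 0.699 FPKM in E17.5 axon and 78.8 and 95.1 in retina, but at 2236 and 1742 in P0.5 axon and 34.4 and 32.6 in retina, so that the differences were -5.92 and 5.84 on the log2 scale and their difference -11.76 (SE 1.04, adjusted p = 0.00858). Neither count held without P0.5 retina 1 or without P0.5 retina 2, when 0 genes passed in either direction, and quantile normalization left 170 smaller and 30 larger. The counts therefore rest on both P0.5 retina libraries.

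A simple ratio of mean FPKM gave a different picture of the axon side. By that measure 47 genes with a retina value above 0 exceeded a ratio of 100, of which 35 ranked higher in axon, and 12 of the genes above the ratio were under 1 FPKM in an axon library. Below a ratio of 0.1 lay 418 genes, of which 376 ranked higher in retina. At the edge of the filter, Tsc22d1 (second highest value 1.003 FPKM) and Ube2d2a (1.005 FPKM) were just inside, and Nfatc4 (0.999 FPKM) and Scamp5 (0.998 FPKM) just outside.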

How the data were processed

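Ribosome-bound mRNA was immunopurified with an HA antibody, reverse-transcribed from the poly(A) tail, amplified by PCR and sequenced. According to the methods and the submitters' processing notes, the authors mapped reads to mm10 with TopHat2 2.0.12 and computed the deposited FPKM per gene with Cufflinks 2.2.1. FPKM is scaled by transcript length and library total, so a few very abundant transcripts shift all others. From these values, genes at 1 FPKM in at least 2 of the 4 libraries were ranked within each library and tested with limma 3.58.1 (trend, robust) on log2(FPKM + 1), two-sided, with Benjamini-Hochberg adjustment over all genes tested; fold changes on this scale understate low genes. The fit was tested on simulated data. Lengths and positions came from GENCODE vM21 on GRCm38, the assembly also called mm10. Of 23995 genes, 3 had a missing entry in the libraries compared and were left out. The 4 run-off libraries were not used. Named genes were, in each direction, the 10 with the widest percentile gap at 10 FPKM or more in the higher pair, for axons also the 10 above both Cre-negative libraries, up to 4 abundant and 2 widest-gap members of each of 22 lists, Rpl22 and Pax6, and the 5 smallest p of the stage difference; the genes that held their order at all stages and further list members were named after their values were seen. Members and lists were chosen with earlier results of these data known. Values of 1 gene are not reported here.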

Additional observations from a re-analysis of the deposited data

Results flagged for a closer look

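The difference between axon and retina differed between E17.5 and P0.5 by a test of that difference (limma, interaction of tissue and stage, 2 libraries in each of 4 groups). It was smaller at E17.5 for 1563 genes and larger for 59 genes of 5084. The 4 groups shared an estimate of each gene's spread in this test. The 5 genes that the rule named, each with an adjusted p of 0.00858, all had the smaller difference at E17.5. Other genes shared this adjusted p, among them Mrpl55, whose difference was larger at E17.5 by 5.37 on the log2 scale. For Cst3 (cystatin C) the difference of differences was -11.76 on the log2 scale, and for Tsr3, which modifies ribosomal RNA, it was -8.49. For Mgp (matrix Gla protein) it was -7.36, for Sult2b1 (a sulfotransferase) -6.81 and for Lin7b (a synaptic scaffold protein) -6.75. Sult2b1 and Lin7b were listed at 0 in all 4 E17.5 axon and retina libraries, so that their values describe P0.5 alone, where Sult2b1 stood at 120 and 103 FPKM in axon and Lin7b at 124 and 92.3. Without either of the P0.5 retina libraries 0 genes passed.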

How the results depend on the processing

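Depth, with Cre-negative 1 near 480000 fragments, and the low agreement of the axon pair limit every E17.5 statement. The count of genes passing limma at E17.5 (0 and 0) became 33 higher in axon and 62 in retina when all 24 libraries shared a spread. Leaving out each replicate gave 0 to 6 and 0 to 17, the 6 and 17 without axon 2, the lone axon library being assumed to vary like the retina pair. With the replicate number as a block, 0 and 1 genes passed (Peg12). The replicate-1-minus-2 differences of axon and retina correlated at 0.151 over genes, against 0.501 for axon and Cre-negative, and at P0.5 axon and retina gave 0.524. Only 2 pairs share a number, and no source says that a number marks the same animals. Pairing by number alone, 750 genes ranked higher in axon and 821 in retina. Rank counts (488 and 603) became 120 and 118 with 1 FPKM in all 4 libraries, 255 and 276 with 5 FPKM in 2, 1880 and 1745 with no filter, 309 and 389 with a gap of 10 percentile points, 351 and 298 with values above 0 throughout, 137 on the axon side above both Cre-negative libraries (chosen after seeing the data, as were the list counts without each library), and 811 to 1161 and 841 to 1236 without each replicate. When only genes passing at the later stage were ranked, fewer genes remained to compare. At P0.5, 157 of 275 axon genes (57.1%) kept their order, against 339 of 488 (69.5%) in the main ranks. The P7.5 share was 37.9% (77 of 203) against 43.9% (214 of 488). In the adult it was 27.9% (57 of 204) against 25.2% (123 of 488). Of all genes so ranked, 32.9%, 16.6% and 20.6% were higher in axon at these stages. Among retina genes at P7.5, 119 of 284 (41.9%) kept their order, against 191 of 603 (31.7%). In the stage difference, genes larger at E17.5 (59) became 21 with no filter, 97 with median-ratio scaling, 30 with quantile normalization, 21 with the replicate block, 29 with all 24 libraries and 0 to 317 without each replicate; those smaller (1563) became 823 with no filter, 170 with quantile normalization and 0 to 1838 without each replicate. Scaling moved the median log2 difference of all genes from 0.27 to 0.11 (median ratio). No named gene among the 28 with the widest gaps changed sign, and the choice of genes fixes that; 5 of their 224 alternative values passed where all 24 libraries were fitted. The causes of these shifts were not tested.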
